A study of Homo sapiens with 16 samples.

Results

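This report follows 10 genes that carry iron into the cell, store it, free it from ferritin, release it from heme or sense it: FTL, FTH1, TFRC, HMOX1, NCOA4, IREB2, ACO1, SLC11A2, SLC39A14 and STEAP3. They were taken by symbol from the protein-coding rows of the deposited expression tables, and are 10 of 60560 gene rows in each table. All 10 passed the filter on low values in both tables. RNA sequencing was done on SW480 and HCT116, established lines of human colorectal cancer cells, in 2 experiments with separate controls. In the curcumin experiment the groups were SW480 with curcumin, SW480 non-treated control, HCT116 with curcumin and HCT116 non-treated control. In the andrographis experiment they were SW480 with andrographis, SW480 non-treated control, HCT116 with andrographis and HCT116 non-treated control. Each group had 2 libraries, 16 in all, and cells were exposed to a compound for 16 h. Curcumin is the yellow polyphenol of turmeric, and the paper used it as an extract of Curcuma longa that also holds turmeric oils. Andrographis is likewise a plant extract rather than a single molecule. The labels give no concentration for either. For all experiments after its viability assays, the paper gives a higher concentration of each compound in SW480 than in HCT116. The labels also leave unsaid whether replicate libraries were grown apart, so every p-value is set against a spread that may be technical.

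The columns of the andrographis table are marked A and D, and D was read as the non-treated control by elimination; the direction of every andrographis change below rests on that reading. Levels are given in FPKM, read fragments scaled by gene length and by library depth, recovered from the deposited log2(FPKM + 1) values. The tables of the experiments were made separately, so levels are compared only within a table. Estimated depth was 9.3 to 22.9 M reads (M, megareads) per library in the curcumin experiment and 15.5 to 32.0 M in the andrographis experiment. Of 9 colorectal epithelium markers, 6 reached 1 FPKM in the curcumin experiment and 7 in the andrographis experiment, with CDX1 and LGALS4 below it in both. No endothelial marker of 3 reached that level, and of 5 stromal markers 1, COL1A1, did. Of 5 immune markers 1 reached it in the andrographis experiment and 0 in the curcumin experiment. In SW480 the summed immune markers were 0.155 to 0.156 FPKM with andrographis against 0.487 to 0.5 FPKM in controls. In the andrographis experiment the summed epithelial markers moved with treatment, to 1265 to 1279 FPKM in HCT116 with andrographis against 927 to 989 FPKM in controls, and to 1111 to 1219 FPKM in SW480 with andrographis against 1507 to 1864 FPKM in controls; their part in the results was not tested. These are bulk measurements, in which a change in the number of cells that express a gene and a change in RNA per cell cannot be told apart.

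Iron bound to transferrin is taken up through the transferrin receptor TFRC, reduced in the endosome by STEAP3 and moved to the cytosol by SLC11A2, while SLC39A14 brings in iron that is not bound to transferrin. Iron in excess is stored in ferritin, a shell of light (FTL) and heavy (FTH1) chains, of which the heavy chain oxidises iron. NCOA4 carries ferritin to the lysosome for degradation, and HMOX1 splits heme into biliverdin, carbon monoxide and iron. The iron regulatory proteins, encoded by ACO1 and IREB2, bind a hairpin called the iron responsive element: in ferritin mRNA it lies near the 5′ end and binding blocks translation, in TFRC mRNA it lies near the 3′ end and binding stabilises the message. This step acts on translation for ferritin, so RNA levels do not show it. Ferritin and HMOX1 genes are also known targets of the oxidative stress factor NRF2.

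The hairpin pattern is a C, 5 bases of one arm, the loop CAGTGN and 5 bases that pair with that arm. RefSeq promoter windows (GRCh38.p14) ran from 250 bases before to 50 bases after a start. In all 35116 windows only the 50 bases after the start were searched, on the sense strand. The pattern was found in 8 windows (0.0228%), FTL among them. FTH1, HMOX1 and SLC39A14 had no window, so they were not searched. The FTL match and that of ALAS2, the erythroid heme synthesis enzyme and a known carrier of the element, are shown because this hairpin is how iron regulatory proteins recognise the message. The 6 loop bases are in capitals and both sequences are sense strand. A match describes letters and is not evidence of binding.
FTL, chr19:48965341-48965357, plus strand, transcript bases 33 to 49: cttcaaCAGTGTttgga
ALAS2, chrX:55030947-55030963, minus strand, transcript bases 15 to 31: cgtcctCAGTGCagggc

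Andrographis gave higher HMOX1, FTL and TFRC RNA in both lines, and higher FTH1 RNA in HCT116. In SW480, 3 of the 10 genes passed limma's test at an adjusted p under 0.05, all upward, against 3.08% of the 12811 genes tested that passed upward. In HCT116, 4 of 10 passed upward, against 2.87% of genes. With curcumin the same test passed FTL and FTH1 in HCT116 (2 of 10 genes, against 0.104% of 16341 genes upward) and 0 of 10 in SW480, where 0.129% of genes passed upward. No gene of the 10 was called lower in any of the 4 comparisons, while 4.21% of all genes were in SW480 and 3.95% in HCT116 with andrographis, and 0.177% in SW480 and 0.0673% in HCT116 with curcumin. At the looser threshold of the methods, an unadjusted p under 0.05 with an absolute log2 fold change over 0.5, SW480 with curcumin had 2 genes (FTL and FTH1, against 0.673% of all genes upward), HCT116 with curcumin 3 (also HMOX1, 0.906%), SW480 with andrographis 4 (5.16%) and HCT116 with andrographis 4 (4.18%). The 10 genes were chosen with earlier results of these data known, so these counts and shares are a description.

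**Figure D1:**
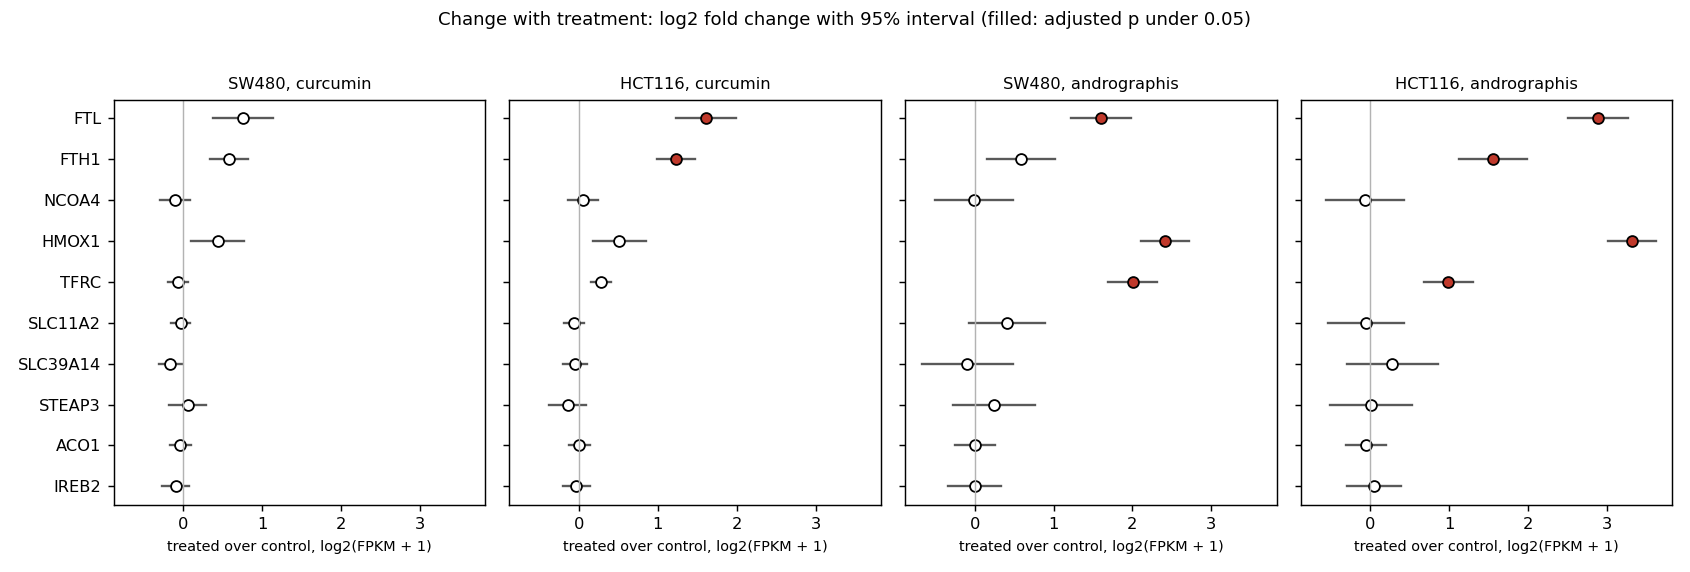
Change of each iron gene with treatment (x axis, log2 fold change of treated over control on the log2(FPKM + 1) scale; lines, 95% intervals from limma). Filled points passed an adjusted p under 0.05; HMOX1 lies furthest to the right under andrographis, at 2.42 in SW480 and 3.31 in HCT116, followed by TFRC at 2.01 in SW480 and FTL at 2.89 in HCT116.

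HMOX1, on chromosome 22 (35381096 to 35394207, GRCh38.p14), had the largest change of the 10 genes under andrographis. In HCT116 it stood at 81.2 and 84.8 FPKM with andrographis and at 7.80 and 7.12 FPKM in controls. SW480 cells had 14.7 and 18.5 FPKM with andrographis and 2.22 and 2.34 FPKM in controls. Treated and control libraries were far apart in both lines, and every HCT116 control lay above every SW480 control. HMOX1 changed by 3.31 on the log2 scale in HCT116 (SE 0.13, adjusted p = 0.00016, limma), 11.1-fold on the linear scale and rank 3 of 12811 genes by upward change. In SW480 the change was 2.42 (SE 0.13, adjusted p = 0.00155, limma), 7.28-fold and rank 2.

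The curcumin changes of HMOX1 did not pass the test. It stood at 12.5 and 14.9 FPKM in HCT116 with curcumin and at 8.62 and 9.98 FPKM in HCT116 controls. SW480 cells had 3.23 and 3.003 FPKM with curcumin and 2.44 and 1.70 FPKM in controls. Treated libraries exceeded controls in both lines without overlap. The log2 changes were 0.51 in HCT116 (SE 0.14, adjusted p = 0.244, limma) and 0.44 in SW480 (SE 0.14, adjusted p = 0.284, limma).

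FTL, the ferritin light chain, on chromosome 19 (48965309 to 48966879), carried the highest levels of the 10 genes in every library. In HCT116 with andrographis it reached 1831 and 1566 FPKM, against 219 and 236 FPKM in controls. In SW480 with andrographis it reached 806 and 703 FPKM, against 267 and 229 FPKM in controls. Controls of the lines overlapped, and treated HCT116 libraries were the highest. The change was 2.89 on the log2 scale in HCT116 (SE 0.16, adjusted p = 0.000525, limma; 7.46-fold) and 1.60 in SW480 (SE 0.16, adjusted p = 0.00605, limma; 3.04-fold). The call in SW480 was lost when the fit held only the libraries of that comparison (adjusted p = 0.0587). In HCT116 the FTL row took 0.878% and 0.753% of all FPKM with andrographis, first among all genes in both libraries, against 0.106% and 0.114% in controls. In SW480 it took 0.390% and 0.353% with andrographis, against 0.130% and 0.114% in controls.

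With curcumin FTL stood at 1839 and 2152 FPKM in HCT116, against 589 and 717 FPKM in controls. SW480 cells had 1486 and 1842 FPKM with curcumin, against 954 and 1006 FPKM in controls. Treated libraries were above controls in both lines. The log2 change was 1.61 in HCT116 (SE 0.16, adjusted p = 0.0446, limma; 3.06-fold, rank 4 of 16341) and 0.76 in SW480 (SE 0.16, adjusted p = 0.135, limma; 1.70-fold), which did not pass. Neither direction changed under any alternative, but the HCT116 call lies close to the threshold: it was lost when any 1 library of the experiment was left out (adjusted p up to 0.352 without the second HCT116 curcumin library). In SW480 it was gained with only protein-coding rows or a filter at 10 FPKM, as it was for FTH1.

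FTH1, the ferritin heavy chain, on chromosome 11 (61964285 to 61967634), followed the light chain at lower FPKM. In HCT116 it stood at 30.4 and 33.5 FPKM with andrographis and at 9.43 and 11.01 FPKM in controls. In SW480 it stood at 20.1 and 27.3 FPKM with andrographis and at 13.5 and 17.2 FPKM in controls. Groups did not overlap in either line, though the SW480 libraries lay close together. The log2 change was 1.56 in HCT116 (SE 0.18, adjusted p = 0.0072, limma; 3.12-fold) and 0.59 in SW480 (SE 0.18, adjusted p = 0.0997, limma; 1.54-fold). The HCT116 call was lost when any 1 HCT116 library was left out (adjusted p up to 0.0936), and the SW480 change passed without the first SW480 andrographis library and with the replicate number as a block (adjusted p = 0.0403, limma).

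With curcumin FTH1 stood at 110 and 122 FPKM in HCT116, against 47.4 and 49.9 FPKM in controls. SW480 cells had 192 and 160 FPKM with curcumin, against 119 and 114 FPKM in controls. SW480 controls lay at the height of treated HCT116 cells. The log2 change was 1.23 in HCT116 (SE 0.10, adjusted p = 0.0302, limma; 2.38-fold) and 0.58 in SW480 (SE 0.10, adjusted p = 0.0944, limma; 1.51-fold). The HCT116 call was lost when any 1 HCT116 library or SW480 control library was left out, with adjusted p up to 0.330.

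FTH1 and FTL have many processed pseudogenes, whose rows can share reads with the genes, so the FTH1 row is uncertain. The 25 FTH1 pseudogene rows summed to 34.4 to 52.1% of the FTH1 row in curcumin libraries and to 54.3 to 92.3% in andrographis libraries. The 16 FTL pseudogene rows came to 4.05 to 5.15% and 0.0752 to 0.326% of the FTL row. With these rows added, an alternative chosen after the values were seen, the FTH1 change with andrographis was 1.495 in HCT116 (adjusted p = 0.00474, limma). In SW480 it was 0.69 and passed (adjusted p = 0.0452, limma). The higher FTH1 in SW480 than in HCT116 andrographis controls lost its call with these rows added (0.39, adjusted p = 0.0657, limma).

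The ratio of the FTL row to the FTH1 row was higher with andrographis. In HCT116 it was 60.2 and 46.8 with andrographis and 23.2 and 21.5 in controls, and in SW480 it was 40.2 and 25.8 with andrographis and 19.7 and 13.3 in controls. With curcumin it was 16.8 and 17.7 in HCT116, against 12.4 and 14.4 in controls, and 7.75 and 11.5 in SW480, against 7.99 and 8.86 in controls, where the groups overlapped. The ratio depends on how reads were shared with pseudogenes and was not tested.

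**Figure D2:**
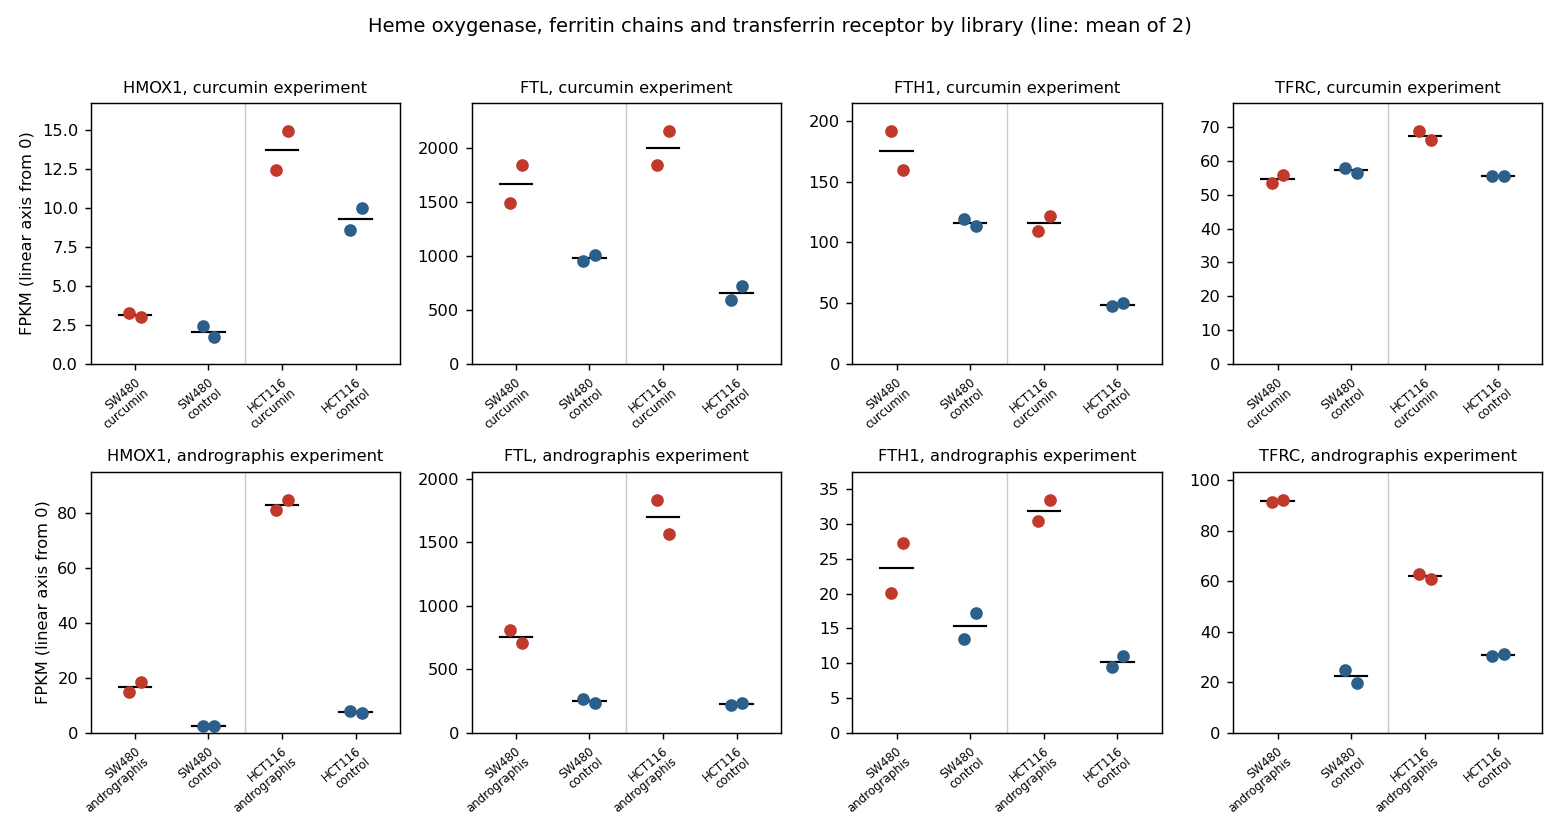
FPKM by library (y axis, linear from 0) for HMOX1, FTL, FTH1 and TFRC in the curcumin (top) and andrographis (bottom) experiments; points are libraries, treated in red and control in blue, and lines are means of 2. HMOX1 in HCT116 averaged 83.0 FPKM with andrographis and 7.46 FPKM in controls, and TFRC in SW480 averaged 91.8 FPKM with andrographis and 22.3 FPKM in controls.

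TFRC, the transferrin receptor, on chromosome 3 (196049284 to 196082090), also changed under andrographis, with the larger change in SW480. In SW480 it stood at 91.3 and 92.2 FPKM with andrographis and at 25.0 and 19.5 FPKM in controls. In HCT116 it stood at 63.0 and 61.0 FPKM with andrographis and at 30.5 and 31.0 FPKM in controls. SW480 controls were the lowest of the 4 groups and SW480 treated cells the highest. The log2 change was 2.01 in SW480 (SE 0.13, adjusted p = 0.00212, limma; 4.12-fold, rank 7 of 12811) and 0.99 in HCT116 (SE 0.13, adjusted p = 0.011, limma; 2.01-fold). The HCT116 call was lost when any 1 HCT116 library was left out, with adjusted p up to 0.128.

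With curcumin TFRC stood at 68.8 and 66.1 FPKM in HCT116, against 55.5 and 55.4 FPKM in controls. The SW480 values were 53.5 and 56.0 FPKM with curcumin, against 58.0 and 56.6 FPKM in controls. The HCT116 libraries were higher with curcumin and the SW480 libraries slightly lower, without overlap in either line. Neither difference passed limma's test (log2 change 0.28, adjusted p = 0.136 in HCT116; -0.065, adjusted p = 0.70 in SW480).

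Promoter windows were read for 7 of the 10 genes, 12 windows in all; FTH1, HMOX1 and SLC39A14 were not matched. The 250 bases before the start of FTL and of TFRC are shown because these genes changed under andrographis in both lines. Capitals mark matches, on either strand, to the GC box GGGCGG, the box CCAAT and the core ACGTG bound by hypoxia-inducible factors. In TFRC they also mark TATAAA, a core promoter motif, and none of the marked matches overlap.
FTL, chr19:48965059-48965308, plus strand, GRCh38.p14: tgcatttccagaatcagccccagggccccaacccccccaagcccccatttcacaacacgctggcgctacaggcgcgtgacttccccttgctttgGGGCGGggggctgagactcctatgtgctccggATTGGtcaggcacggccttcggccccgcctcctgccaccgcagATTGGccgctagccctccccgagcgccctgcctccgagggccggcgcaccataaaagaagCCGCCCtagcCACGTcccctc
TFRC, chr3:196082091-196082340, minus strand, GRCh38.p14: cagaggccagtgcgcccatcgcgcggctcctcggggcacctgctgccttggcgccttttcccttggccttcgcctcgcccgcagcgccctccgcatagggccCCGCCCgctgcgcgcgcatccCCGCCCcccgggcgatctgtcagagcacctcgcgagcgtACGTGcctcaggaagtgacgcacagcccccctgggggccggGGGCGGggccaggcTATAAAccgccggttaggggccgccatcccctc
These motifs were searched on both strands in the 250 bases before the start. The GC box was present in 42.6% of all windows, the CCAAT box in 32% and ACGTG in 18.5%. They were in 7, 5 and 2 of the 12 windows of the iron genes. A gene can have several windows, and those with the CCAAT box belong to SLC11A2, at several starts, and to FTL. The antioxidant response element pattern TGACNNNGC, which NRF2 binds, was in 10.9% of all windows and in 0 of the 12 windows of the iron genes. The E-box CACGTG was in 6.34% and 0. No match says only that these letters are not in the 250 bases searched.

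The lines were compared directly. In the andrographis experiment FTL and TFRC differed between lines in their response, 2 of 10 genes against 2.36% of all genes. The FTL change in SW480 minus that in HCT116 was -1.29 (SE 0.23, adjusted p = 0.0426, limma), and the TFRC difference was 1.02 (SE 0.19, adjusted p = 0.0457, limma). So FTL changed less and TFRC more in SW480. The paper gives a higher concentration for SW480 than for HCT116, so line and dose cannot be told apart here. Both calls sit close to the threshold and both were lost when any 1 HCT116 library was left out (adjusted p up to 0.253 for FTL and 0.252 for TFRC). Both were also lost without the second SW480 andrographis library or the second SW480 control, and FTL without the first SW480 control too. The HMOX1 difference of -0.90 (SE 0.18, adjusted p = 0.0611) and the FTH1 difference of -0.97 (SE 0.26, adjusted p = 0.110) did not pass limma's test. The HMOX1 difference passed with a pseudocount of 10 (-1.30, adjusted p = 0.00485, limma) and with protein-coding rows only (adjusted p = 0.0468, limma). Its size depended on the pseudocount: with a pseudocount of 0.1 it was -0.66 and did not pass. Without the first or the second SW480 andrographis library it was -0.74 or -1.05. In the curcumin experiment limma called 0 of 16341 genes (0%), and so 0 of the 10, while 1341 genes had an unadjusted p under 0.05. These included TFRC at -0.34, FTH1 at -0.65 and FTL at -0.86.

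Starting levels differed between the lines for 7 of the 10 genes in curcumin controls, where 62.7% of all genes passed, and for 6 in andrographis controls, where 60.7% did, so these shares lie near the background. HMOX1 was lower in SW480 in both sets of controls (log2 difference -1.76 among curcumin controls, SE 0.14, and -1.37 among andrographis controls, SE 0.13; both calls held in all alternatives run). ACO1, STEAP3 and IREB2 were lower in SW480 in both sets, and FTH1 was higher in both. Over all genes, 4833 were called lower in SW480 and 2942 higher among andrographis controls, with a median difference of -0.18. Among curcumin controls 4850 were called lower and 5389 higher. FTL and SLC39A14 were called higher in SW480 among curcumin controls, at 0.59 and 0.25, and TFRC was called lower among andrographis controls, at -0.46; whether these differences differ between the experiments was not tested. The calls on FTL, SLC39A14, IREB2, FTH1 and TFRC were each lost in at least 1 set of controls when a single library was left out. With libraries scaled to the same median the TFRC difference was -0.27 and lost its call (adjusted p = 0.144, limma), as did SLC39A14 among curcumin controls (adjusted p = 0.102, limma). FTL in andrographis controls differed by 0.12, with an interval of -0.26 to 0.50. SLC39A14 in andrographis controls was higher in SW480 by 0.50, without overlap, but was not called (adjusted p = 0.115, limma). It was called there with libraries scaled to the same median (0.68, adjusted p = 0.0409, limma).

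**Figure D3:**
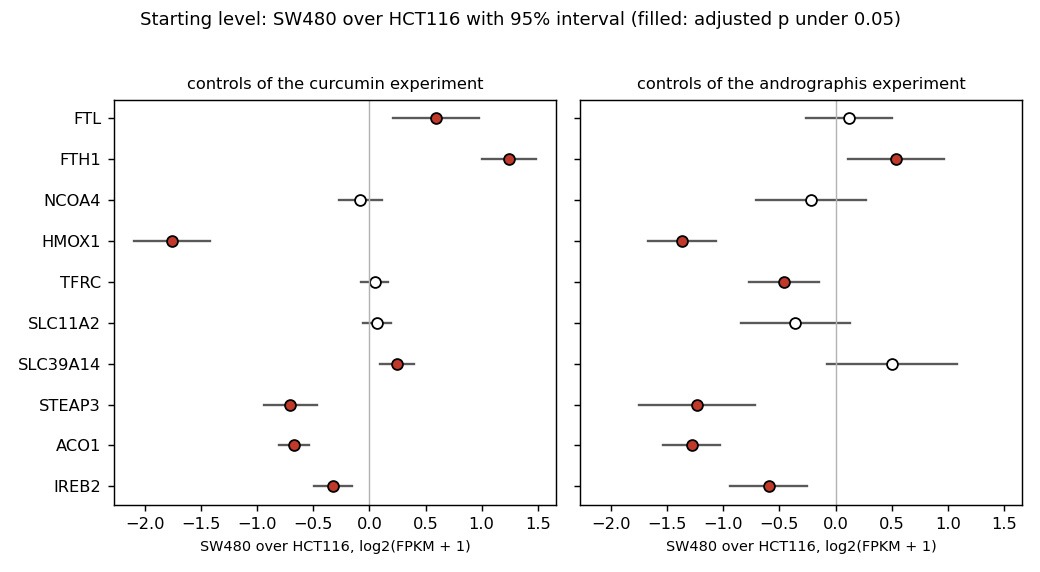
Starting level of each iron gene in SW480 over HCT116 among control libraries of each experiment (x axis, log2 difference on the log2(FPKM + 1) scale; lines, 95% intervals from limma; filled, adjusted p under 0.05). HMOX1 lies furthest to the left in both panels, at -1.76 and -1.37.

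The remaining 6 genes passed the adjusted test in none of the 4 treated comparisons. Their log2 changes lay between -0.16 (SLC39A14 in SW480 with curcumin) and 0.41 (SLC11A2 in SW480 with andrographis), and the intervals show how large a change the data allow. NCOA4, the ferritin carrier, stood at 55.1 and 54.2 FPKM in HCT116 with andrographis, against 57.7 and 56.5 FPKM in controls. SW480 libraries had 38.6 and 61.6 FPKM with andrographis, against 45.7 and 52.3 FPKM in controls, the treated pair lying outside the controls on both sides. The NCOA4 interval ran from -0.55 to 0.43 in HCT116 and from -0.50 to 0.49 in SW480. With curcumin its change was 0.051 in HCT116 (-0.14 to 0.24) and -0.10 in SW480 (-0.30 to 0.086).

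The genes of the iron regulatory proteins were called between lines in the controls and in no treated comparison. ACO1 stood at 6.55 and 5.81 FPKM in SW480 with andrographis and at 6.10 and 6.17 FPKM in SW480 controls. It stood at 15.8 and 15.7 FPKM in HCT116 with andrographis and at 17.3 and 15.4 FPKM in HCT116 controls. Every SW480 library lay below every HCT116 library, and treated and control libraries overlapped in both lines. IREB2 stood at 5.58 and 4.68 FPKM in SW480 with andrographis and at 4.42 and 5.92 FPKM in controls, and at 8.50 and 8.62 FPKM in HCT116 with andrographis and at 8.38 and 8.13 FPKM in controls. The andrographis changes of IREB2 were 0.047 in HCT116 (-0.29 to 0.39) and close to 0 in SW480 (-0.34 to 0.34). With curcumin the changes of ACO1 were 0.0038 in HCT116 (-0.13 to 0.14) and -0.041 in SW480 (-0.17 to 0.092), and those of IREB2 were -0.032 in HCT116 (-0.20 to 0.14) and -0.097 in SW480 (-0.27 to 0.073).

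The transporters that work beside the transferrin receptor had no call in the fit of all 8 libraries. SLC11A2, the endosomal iron exporter, stood at 8.48 and 5.71 FPKM in SW480 with andrographis and at 6.03 and 4.14 FPKM in controls, with overlap (change 0.41, interval -0.077 to 0.89). In HCT116 it stood at 6.49 and 6.37 FPKM with andrographis and at 7.03 and 6.404 FPKM in controls. SLC39A14, the importer of free iron, stood at 11.8 and 11.1 FPKM in HCT116 with andrographis and at 9.56 and 8.99 FPKM in controls, which did not overlap (change 0.28, interval -0.30 to 0.85). That change passed when the fit held only the libraries of the comparison (adjusted p = 0.00762, limma). In that fit 2631 of 11875 genes passed upward, against 368 of 12811 in the fit of all 8 libraries. In SW480 it stood at 16.9 and 9.39 FPKM with andrographis, against 15.0 and 12.2 FPKM in controls, with the treated libraries far apart. STEAP3, the endosomal reductase, was the lowest of the 10 genes in all 8 andrographis libraries. It stood at 2.09 and 1.01 FPKM in SW480 with andrographis, against 1.33 and 0.876 FPKM in controls, and at 3.98 and 3.95 FPKM in HCT116, against 4.39 and 3.49 FPKM in controls. Under curcumin the changes of these 3 genes lay between -0.16 and 0.058. The lowest, SLC39A14 in SW480, had an interval of -0.31 to -0.011 and no overlap, and did not pass (adjusted p = 0.369, limma).

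**Figure D4:**
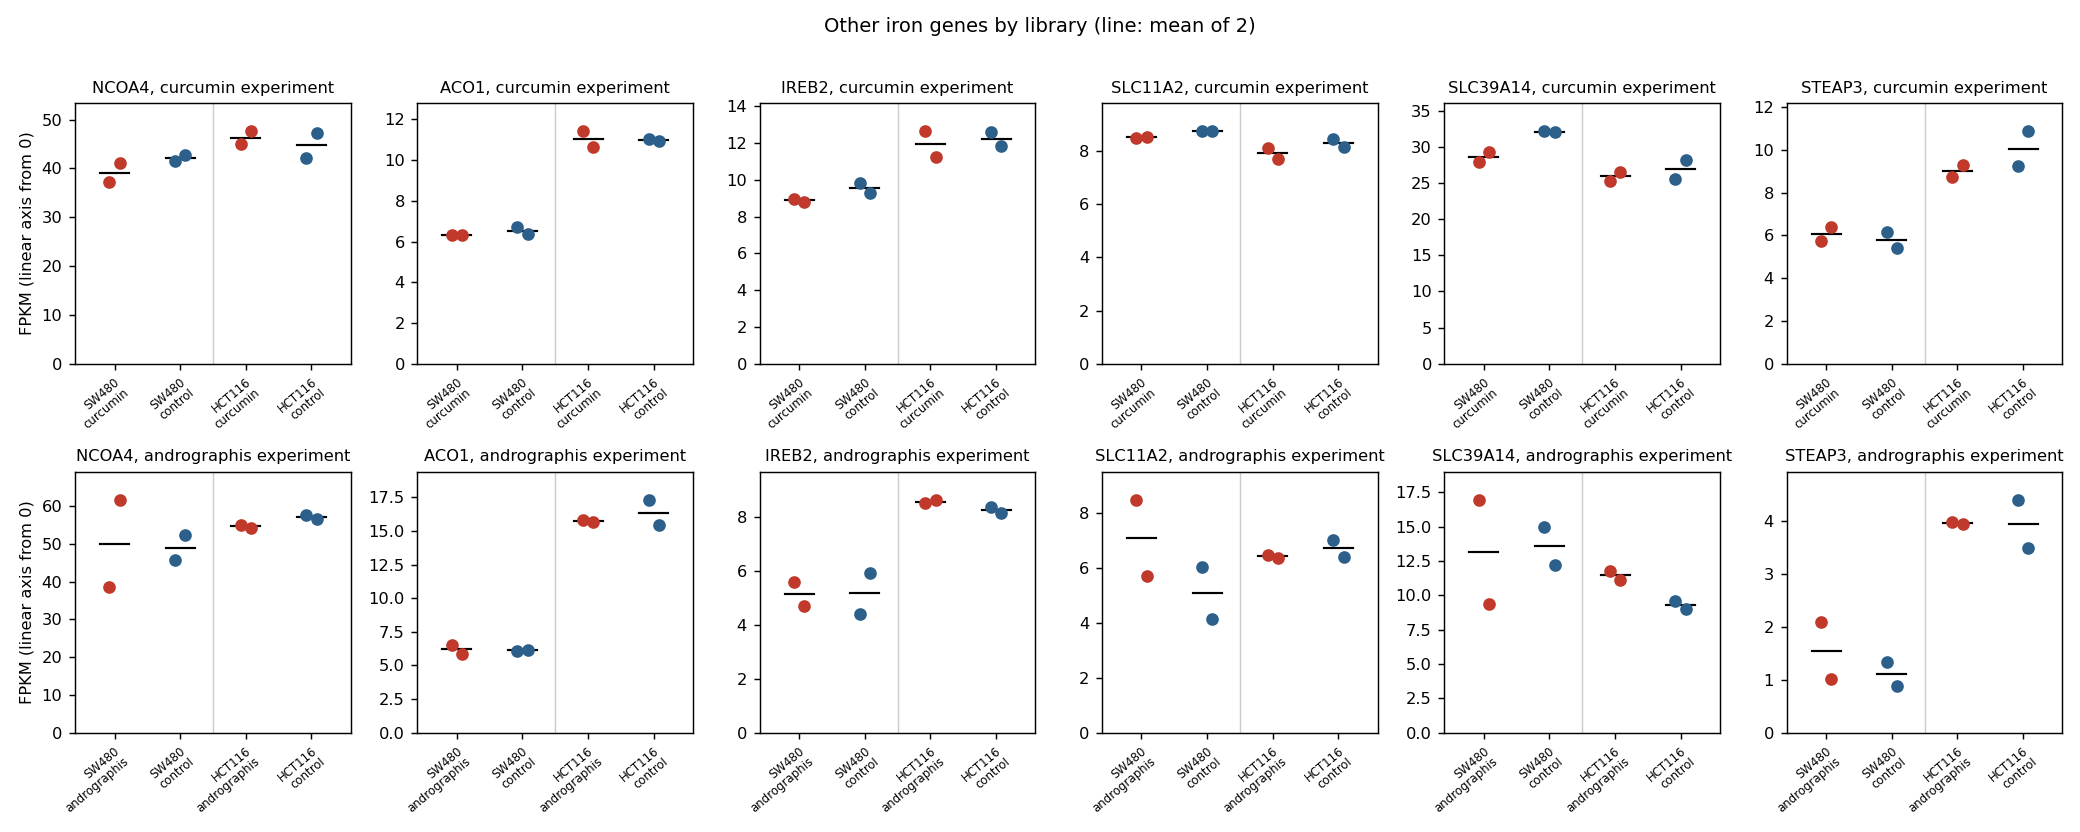
FPKM by library (y axis, linear from 0) for the 6 iron genes without a call, in the curcumin (top) and andrographis (bottom) experiments; points are libraries, treated in red and control in blue, and lines are means of 2. ACO1 separates the lines, with SW480 andrographis libraries at 6.55 and 5.81 FPKM and HCT116 andrographis libraries at 15.8 and 15.7 FPKM.

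Over the 10 genes the median log2 change was 0.33 in SW480 and 0.16 in HCT116 with andrographis, and -0.037 in SW480 and 0.028 in HCT116 with curcumin. The median over all genes tested lay between -0.023 and -0.004. The SW480 andrographis libraries were the least alike of any replicate pair (r = 0.969 over genes, against 0.9769 or more in the other groups), and the genes with widely spaced values above, NCOA4, SLC11A2, SLC39A14 and STEAP3, are spaced widest in that group. The part of that spread in these results was not tested.

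Other genes of iron and heme metabolism were counted from lists. Of 8 heme synthesis genes tested in each experiment, none was called with curcumin. With andrographis 1 was called higher in SW480 (3.08% of all genes were), and 1 higher and 1 lower in HCT116 (2.87% and 3.95% of all genes). ALAS1, the first and rate-limiting enzyme of heme synthesis outside red cells, stood at 111.5 and 112 FPKM in HCT116 with andrographis and at 42.0 and 39.7 FPKM in controls (log2 change 1.43, SE 0.11, adjusted p = 0.00136, limma). In SW480 it stood at 51.1 and 55.9 FPKM with andrographis and at 41.6 and 45.0 FPKM in controls, and did not pass (0.30, adjusted p = 0.138, limma). FECH, which inserts iron into heme, changed by 0.65 in SW480 (adjusted p = 0.0221, limma), and UROS, an earlier enzyme of the pathway, by -0.55 in HCT116 (adjusted p = 0.0313, limma).

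Of 9 genes of heme transport and biliverdin handling tested in the andrographis experiment, 1 was called higher in each line, against 3.08% of all genes in SW480 and 2.87% in HCT116: BLVRB, a biliverdin reductase, in SW480 (0.87, adjusted p = 0.0411, limma) and ABCG2, a heme and drug exporter, in HCT116 (0.44, adjusted p = 0.0386, limma). ABCG2 lay close to the filter at 1 FPKM, at 1.39 and 1.24 FPKM in HCT116 with andrographis and 0.605 and 0.811 FPKM in controls. BLVRB stood at 154 and 150.2 FPKM in HCT116 with andrographis, against 93.7 and 90.9 FPKM in controls, and did not pass there (0.72, adjusted p = 0.0681, limma). The list of iron regulatory proteins and ferritin partners, 13 genes tested, also holds KEAP1, the repressor of NRF2. Of the 13, only KEAP1 was called with andrographis, higher in each line, against the same 3.08% and 2.87% of all genes. Its change was 0.64 in SW480 and 0.76 in HCT116 (adjusted p = 0.0445 and 0.0296, limma). With curcumin none of 7 heme transport genes and none of the 13 genes on the list with KEAP1 was called.

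Of 17 genes of mitochondrial iron and iron-sulfur clusters tested with andrographis, 0 were called in SW480 and 2 higher in HCT116, where 2.87% of all genes were: ISCU, the scaffold on which clusters are built (0.83, adjusted p = 0.0485, limma), and CIAO1, a part of the cytosolic cluster machinery (0.51, adjusted p = 0.0428, limma). Of 10 other import and export genes, 1 was lower in each line, STEAP2 in SW480 and CUBN in HCT116 (-0.78 and -0.56), against 4.21% of all genes lower in SW480 and 3.95% in HCT116. With curcumin the one call in these lists was LCN2 (1 of 9 other import and export genes in SW480, against 0.129% of all genes upward), a carrier of iron-binding siderophores, at 29.7 and 26.1 FPKM in SW480 with curcumin and at 12.6 and 13.4 FPKM in controls (1.04, SE 0.10, adjusted p = 0.0338, limma). In HCT116 LCN2 stood at 1.97 and 2.24 FPKM with curcumin and at 1.60 and 2.05 FPKM in controls, and did not pass (0.14, adjusted p = 0.672, limma). Calls in these lists were not checked under the alternatives.

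The genes whose pattern was most like that of a called gene were found from the correlation over the 8 andrographis libraries after the mean of each line was removed, among 11866 named protein-coding genes. For HMOX1 they were SQSTM1 (r = 0.999), ATAD3A (0.996) and MSN (0.996). For FTL they were ABHD3 (0.998), PSME4 (0.998) and CD55 (0.998), and for TFRC they were WDR12 (0.997), PANX2 (0.994) and ATAD3B (0.992). The libraries fall into treated and control, so any gene with a similar change in both lines scores high, and these values are a description.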

How the data were processed

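RNA of 16 libraries was sequenced (TruSeq RNA library kit, per the labels). The authors deposited 1 table per experiment, and the deposited values are log2 values, log2(FPKM + 1) by inference: when base 2 was undone, low microRNA genes moved in steps of a single read, and 98.2% of 1541 such values (curcumin) and 100% of 307 (andrographis) were whole to within 0.01 times the read number. The steps also gave the depths, which are approximate. The submitters' processing notes list STAR 2.7.8a, DESeq2, bcl2fastq 2.20.0.422 and the Partek software 10.0.22.0121, beside the builds mm10 and GRCh38, without a role for any of them. The counting tool and annotation are not given in the sources used here. Protein-coding rows held 80.9 to 85.7% of FPKM in the curcumin experiment and 96.9 to 97.6% in the andrographis experiment.

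Each table was fitted separately with limma 3.58.1 (R 4.3.3; lmFit, eBayes with trend) on log2(FPKM + 1), with 4 group means, 8 libraries and 4 residual degrees of freedom. Genes at 1 FPKM or more in 2 or more libraries were tested, 16341 in the curcumin and 12811 in the andrographis experiment, and p-values were adjusted over all of them (Benjamini-Hochberg). Fold changes are on the log2(FPKM + 1) scale and understate the change of low genes. Scripts were tested on simulated data. Python 3.11.15, pandas 2.3.3 and matplotlib 3.10.9 were used for reading and drawing. Promoter sequences are from RefSeq (GRCh38.p14). All 10 iron genes are named, and up to 4 called genes of each related list. The genes and lists were chosen with earlier results of these data known. Alternatives covered scaling, filter, pseudocount, trend, replicate block, protein-coding rows only, only the compared groups, and each library left out. Results of 1 list of cell type markers are not reported here.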

Additional observations from a re-analysis of the deposited data

Results flagged for a closer look

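The response to andrographis differed between the lines for FTL and for TFRC by limma's interaction test, where line and dose cannot be told apart. The FTL change in SW480 minus that in HCT116 was -1.29 (adjusted p = 0.0426), and the TFRC difference was 1.02 (adjusted p = 0.0457). The FTL change was 1.60 in SW480 and 2.89 in HCT116, while the TFRC change was 2.01 in SW480 and 0.99 in HCT116. Both differences lost their call with libraries scaled to the same median, with no filter, with a pseudocount of 0.1 and with the replicate block.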

How the results depend on the processing

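Called changes kept their direction in every alternative run, while the number of calls moved. The calls over all genes moved too, so a moved count need not be particular to the iron genes. In SW480 with curcumin 106 of 11431 protein-coding genes passed upward, against 21 of 16341 in the fit as reported. In HCT116 with curcumin 2 genes passed upward with equal medians and 32 of 41501 with no filter, against 17. Leaving out 1 HCT116 library lowered calls over all genes in HCT116 with either compound. Without the first SW480 andrographis library they rose for the line difference. For SW480 with curcumin the count of 0 iron genes became 2 with a filter at 10 FPKM and with protein-coding rows only. For HCT116 with curcumin the count of 2 became 0 with libraries scaled to the same median, without trend and with only the compared groups, and 1 with no filter and with a pseudocount of 0.1. Leaving out 1 library gave 0 to 1. For HCT116 with andrographis the count of 4 became 2 when any 1 HCT116 library was left out. The andrographis difference between lines, 2 genes, became 0 with equal medians, no filter, a pseudocount of 0.1 or the replicate block, and 0 to 4 with 1 library left out. Control counts fell to 4 of 7 genes (without the second SW480 control, curcumin) and to 3 of 6 (without either HCT116 control, andrographis). At the threshold of the methods, SW480 with curcumin had 1 gene, against 2, without the first SW480 curcumin library.

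The replicate numbers were not taken to pair the libraries, since the labels do not tie them and only some pairs moved together: same-numbered treated and control libraries deviated together with correlations of 0.035 and 0.562 in SW480 and 0.197 and -0.001 in HCT116 (curcumin, andrographis). With the replicate block FTH1 in SW480 with andrographis passed (0.59, adjusted p = 0.0403, limma). Signs turned only for changes that were not called in the fit as reported: the curcumin line difference of HMOX1 became 0.037 with a pseudocount of 0.1, the control difference of TFRC -0.024 with equal medians, and in SW480 with andrographis IREB2 became 0.030 with equal medians and 0.000485 with a pseudocount of 0.1, and NCOA4 0.031 with equal medians and 0.000845 with a pseudocount of 10. With 1 library left out, these log2 changes spanned 0; of them, the SLC39A14 andrographis line difference passed at its lower end (adjusted p = 0.0444, limma, without the first SW480 andrographis library). In SW480 with curcumin the lowest and highest values were STEAP3 -0.021 to 0.14. In HCT116 with curcumin the lowest and highest values were SLC39A14 -0.12 to 0.016, ACO1 -0.043 to 0.051, NCOA4 -0.031 to 0.13, IREB2 -0.11 to 0.047. In the curcumin line difference the lowest and highest values were ACO1 -0.092 to 0.0020, SLC11A2 -0.0069 to 0.064, IREB2 -0.14 to 0.013, HMOX1 -0.25 to 0.097. Between lines in curcumin controls the lowest and highest values were NCOA4 -0.16 to 0.00094. In SW480 with andrographis the lowest and highest values were ACO1 -0.066 to 0.082, IREB2 -0.18 to 0.18, NCOA4 -0.34 to 0.33, SLC39A14 -0.48 to 0.30, STEAP3 -0.061 to 0.56. In HCT116 with andrographis the lowest and highest values were ACO1 -0.13 to 0.028, SLC11A2 -0.11 to 0.0049, STEAP3 -0.12 to 0.15. In the andrographis line difference the lowest and highest values were ACO1 -0.020 to 0.14, IREB2 -0.22 to 0.13, NCOA4 -0.27 to 0.39, SLC39A14 -0.76 to 0.026, STEAP3 -0.074 to 0.55. With 2 libraries a group, the number of replicates limits the precision.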
